A study of Homo sapiens with 16 samples.

Results

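The line that served as control for Ajuba overexpression (Control, n = 3) was compared with the unmodified SW480 line it was made from (Parental, n = 2). The members are 5 of the 16 samples of the series, taken by their labels, and the comparison was repeated without Control 2. SW480 is an established human colon adenocarcinoma cell line. Control cells had been transduced with the lentiviral overexpression construct after its exogenous Ajuba sequence had been removed by a clonal excision, and stable cells had been selected in 1.5 µg/mL puromycin. Parental cells carried no construct, and no puromycin is stated for them. All lines were grown in the same medium and are labelled with 10 to 18 passages. The comparison therefore asks what differs between 2 lines that should hold the same amount of Ajuba, and transduction, drug selection and separate culture cannot be told apart in it. Messenger RNA was sequenced in pairs of 50 bp reads, and the values are read pairs counted per gene. Each line is 1 stable line, the study calls its replicates technical, and the p-values measure only the spread between these libraries. The other 2 lines set beside them are shScrambled (n = 2), which carries a different lentiviral vector with a non-targeting shRNA under the same selection, and Ajuba OE (n = 3), which carries the overexpression construct with Ajuba.

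A lentiviral vector inserts its cargo at many places in the genome of a cell population, and puromycin then kills the cells that took up no resistance gene. What grows out descends from the cells that were infected and survived, so a vector line and its parent can come to differ in genes that the cargo does not touch. SW480 is known for a deregulated Wnt pathway and for holding cells of more than one appearance. Ajuba is a LIM domain scaffold protein of cell contacts and of the Hippo pathway, in one family with LIMD1 and WTIP.

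The Ajuba family did not pass the test between the lines. AJUBA stood at 89.2 and 92.6 CPM (counts per 1000000 counted read pairs) in Parental and at 89.8, 99.7 and 88.5 CPM in Control. The Control values lay around those of Parental, with a log2 fold change of 0.06 ± 0.11 (SE; adjusted p = 0.777, edgeR quasi-likelihood test). Ajuba OE held 573, 492 and 595 CPM of AJUBA. LIMD1 differed by 0.08 ± 0.12 (adjusted p = 0.731) and WTIP by 0.06 ± 0.17 (adjusted p = 0.880) on the log2 scale, both with overlapping samples.

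The 5 libraries held 34334603 to 53584129 counts, and all 16 held 30132396 to 69684675. Control 2 stood apart from the other Control libraries. The median ratio of the squared count difference to its counting error was 11.3 between Control 1 and Control 2 and 6.31 between Control 2 and Control 3, against 4.39 between Control 1 and Control 3 and 3.08 within Parental. Markers of colon epithelium (EPCAM, KRT8, KRT18, KRT19 and others) were detected in all 5 libraries, and 10 of 10 were tested. Their sum was 6228 and 6780 CPM in Parental and 5689, 4896 and 6000 CPM in Control. CDH17, one of these defining markers, was below 1 CPM in all 5 libraries. Fibroblast markers summed to 24.4 to 31.2 CPM with DCN and FAP at 0 counts, leukocyte markers to 6.31 to 8.04 CPM with MS4A1 at 0, and endothelial markers to 2.49 to 3.02 CPM with ERG at 0.

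Of 21644 genes tested, 69 were lower and 11 higher in Control than in Parental at an adjusted p under 0.05. This is 0.319% of the genes tested in the lower direction, 0.0508% in the higher one and 0.37% in both. The log2 fold changes of the lower genes ran from -5.08 to -0.78 and those of the higher genes from 0.83 to 1.48. In all 80 genes, the samples of the 2 lines did not overlap. This is no further support, since the same 5 libraries gave the calls, and no share over all genes is given. Of the lower genes, 62 were protein coding and 7 long non-coding RNAs. Among the higher ones, 3 were protein coding, 4 long non-coding RNAs and 4 of other types.

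The calls rested on few samples. Without Control 2, 652 genes (3.13%) were lower and 333 (1.6%) higher of 20838 tested, 985 (4.73%) together, and all 80 genes were among them in the same direction. The 905 genes called only then all had the same sign in the fit with Control 2. Both fits use Parental 1, Parental 2, Control 1 and Control 3, so the shared directions are not independent support. Leaving out another library had the opposite effect: 16 genes were called without Parental 1, 14 without Parental 2, 42 without Control 1 and 18 without Control 3. At an unadjusted p under 0.05 stood 4219 of the 21644 genes tested, the background for the list counts given below. DESeq2 called 567.

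**Figure D1:**
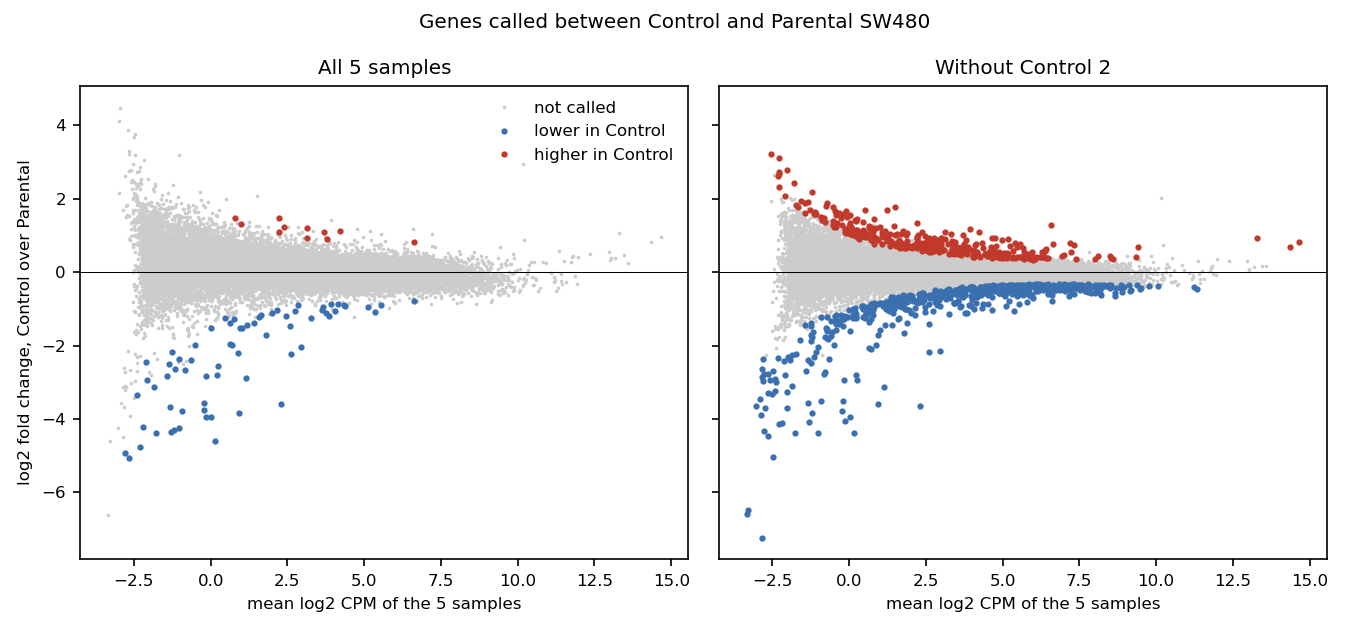
Log2 fold change of Control over Parental (vertical axis) against the mean log2 CPM of the 5 samples (horizontal axis) for each gene tested, with all 5 samples (left) and without Control 2 (right). Blue points are genes called lower and red points genes called higher in Control: 69 and 11 on the left, 652 and 333 on the right.

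The largest falls took genes to low levels in Control, some of them close to the limit of detection. In 18 of the 69 lower genes the Control mean was under 10% of the Parental mean, in 21 it was from 10% to 33.3%, and in 30 it was above that. The genes of the first group were under 10 CPM in Parental, apart from COLCA1. Since these are bulk samples, fewer cells with a transcript and less transcript in each cell cannot be told apart.

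Guidance molecules were among the falls. Class 3 semaphorins are secreted ligands that steer migrating cells and axons through neuropilins and plexins, and Robo receptors bind the secreted Slit proteins. SEMA3D (chr7:84995553-85187056, minus strand, GRCh38, 19 exons) was read at 7.77 and 6.47 CPM in Parental and at 0.29, 0.20 and 0.36 CPM in Control. Every Control library was far below both Parental libraries, a log2 fold change of -4.61 ± 0.23 (adjusted p = 0.00117), or 10, 10 and 16 read pairs against 310 and 343. SEMA3C (chr7:80742538-80922359) fell from 4.08 and 3.53 to 0.35, 0.28 and 0.20 CPM. SEMA3A (chr7:83955777-84492724) fell less, from 23.6 and 24.2 to 11.2, 9.07 and 10.6 CPM. The transmembrane SEMA5A (chr5:9035033-9546075) went from 29.0 and 32.0 to 16.98, 14.1 and 16.4 CPM, to 51.8% of Parental.

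Both Robo receptors of chromosome 3 were lower. ROBO2 (chr3:75906695-77649964) was at 2.66 and 2.34 CPM in Parental and at 0.09, 0.14 and 0.14 CPM in Control. ROBO1 (chr3:78597239-79767998) was at 16.3 and 14.6 against 3.59, 2.96 and 3.13 CPM. The 2 genes lie next to each other, with no other tested gene between them, and neither overlapped between the lines. ROBO3 and ROBO4 had adjusted p of 0.998 and 0.662.

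Over the family, picked by symbol after these values were seen, 34 of 38 semaphorin, plexin, neuropilin, Robo and Slit genes were tested, and 6 were lower and 0 higher. Without Control 2, 9 of 33 were lower and 0 higher, SEMA3F, SEMA3G and SLIT2 being added. The median log2 fold change of the family was -0.02, against 0.04 over all genes, and the genes called were 4 semaphorins and 2 Robo receptors. DESeq2 called 7 lower and 0 higher, and 13 stood at an unadjusted p under 0.05. The receptors of the semaphorins did not pass the test. NRP1 was at 92.1 and 93.3 CPM in Parental and at 105, 91.2 and 93.9 CPM in Control, and PLXNA1 at 281 and 290 against 236, 327 and 250 CPM.

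The 3 semaphorins of chromosome 7 are near each other. Between the outer ends of SEMA3C and SEMA3D (chr7:80742538-85187056), 6 genes were tested and 4 were lower, the fourth being CACNA2D1, an auxiliary subunit of voltage-gated calcium channels, with a log2 fold change of -2.82. PCLO, which lies among them and encodes a protein of the presynaptic zone, had 0.08 (adjusted p = 0.663), and the pseudogene HNRNPA1P8 0.23 (adjusted p = 0.844). On chromosome 11, COLCA1 and POU2AF1 were lower and POU2AF3, which overlaps COLCA1, had -0.36 (adjusted p = 0.548). These places were singled out after their values were seen.

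Other genes near silence in Control were receptors, transcription factors and surface proteins. SSTR1, a somatostatin receptor, was at 1.33 and 1.45 CPM in Parental and at 0.03, 0.06 and 0.09 CPM in Control. IL31RA, a subunit of the receptor for interleukin 31, was at 5.74 and 4.66 against 0.18, 0.32 and 0.45 CPM. PCDH19, a protocadherin of cell contacts, was at 4.86 and 4.26 against 0.15, 0.32 and 0.36 CPM. In all 3 genes the highest Control library was below 10% of the lowest Parental one.

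ESRRG, an orphan nuclear receptor, had a log2 fold change of -3.78 ± 0.31, PHYHIPL of -4.31 ± 0.44, CLRN3 of -3.68 ± 0.29 and RASSF6, a member of the Ras association domain family, of -3.57 ± 0.26. The adjusted p of these 4 genes ran from 0.00346 to 0.0151. DPEP1, a membrane dipeptidase, was at 7.77 and 7.22 CPM in Parental and at 0.67, 1.25 and 0.97 CPM in Control. Another 3 genes fell further on the log2 scale but were below 1 CPM in both lines: CSRNP3 (-5.08), AKR1C4 (-4.92) and GJA1, the gap junction protein connexin 43 (-4.77). They were named after their values were seen, as were the genes given below with no list.

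COLCA1, a transcript named after its link with colorectal cancer, was annotated as a long non-coding RNA at chr11:111290787-111305498. It was at 24.9 and 19.1 CPM in Parental and at 1.61, 1.88 and 1.85 CPM in Control, 8.1% of the Parental mean. Its neighbour POU2AF1, a coactivator of octamer-binding factors, was at 4.13 and 3.06 against 0.26, 0.85 and 0.61 CPM.

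**Figure D2:**
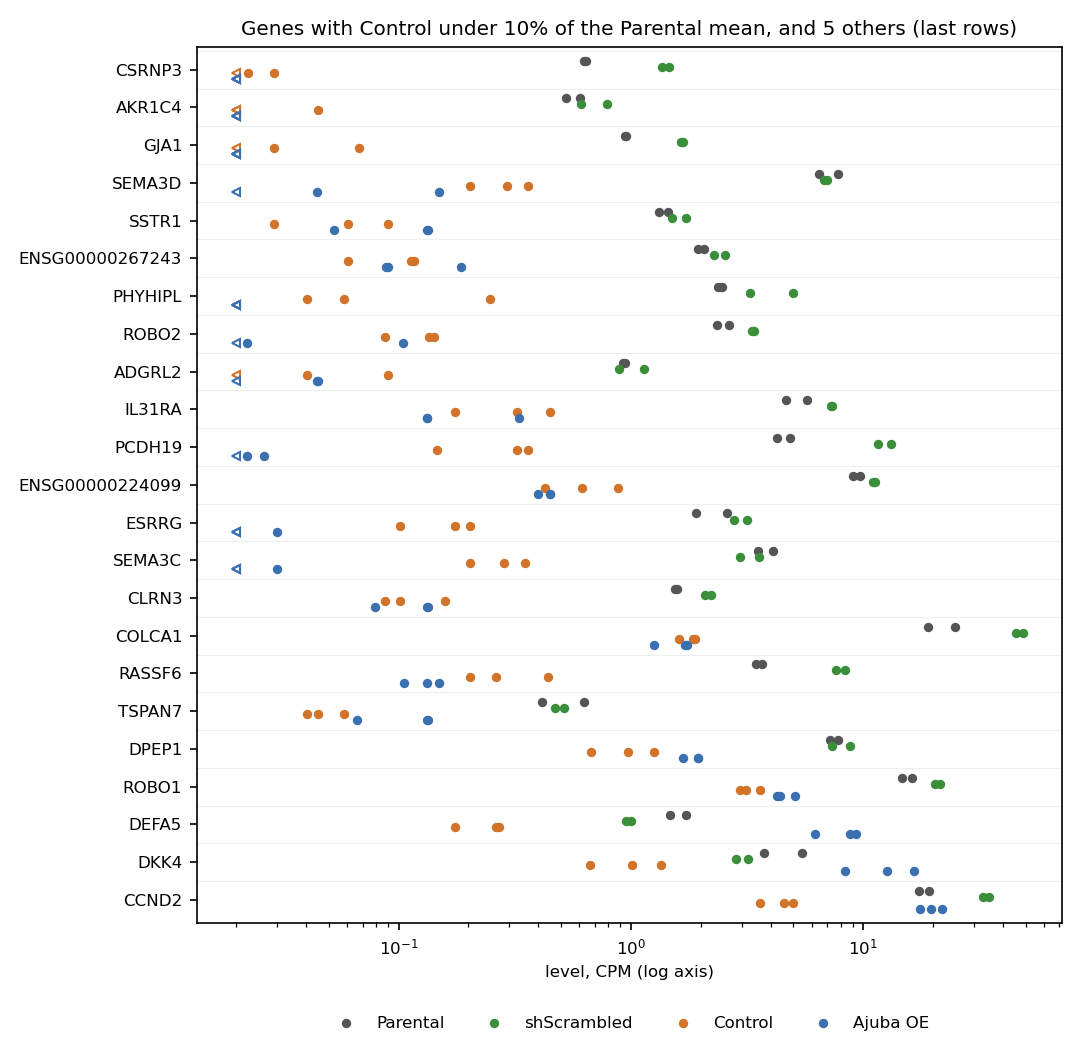
Levels in CPM on a log axis for the 18 genes whose Control mean was under 10% of the Parental mean and, in the last 5 rows, DPEP1, ROBO1, DEFA5, DKK4 and CCND2. Each point is 1 library of Parental, shScrambled, Control or Ajuba OE, and open triangles stand at 0.02 for values below it; in all 23 rows the Control points lie left of the Parental points.

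CCND2 and IGF2, which act in growth control, were lower by less. CCND2, which encodes cyclin D2 (chr12:4269771-4305353), was at 19.1 and 17.5 CPM in Parental and at 4.56, 4.98 and 3.58 CPM in Control, 23.9% of Parental. IGF2, the insulin-like growth factor 2 gene (chr11:2129112-2158391), was at 67.1 and 63.1 against 29.4, 28.8 and 32.1 CPM. The log2 fold changes were -2.03 ± 0.16 (adjusted p = 0.0039) and -1.08 ± 0.10 (adjusted p = 0.0106), and neither gene overlapped between the lines. The list of cell cycle genes (MKI67, cyclins, replication factors and others; 35 tested), which does not hold CCND2, had 0 genes called by edgeR with all samples and without Control 2, and 0 by DESeq2, with 3 at an unadjusted p under 0.05.

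DEFA5 and GPX2, which the intestinal epithelium is known to express, were each lower. DEFA5, a defensin of Paneth cells, was at 1.73 and 1.47 CPM in Parental and at 0.18, 0.26 and 0.27 CPM in Control. GPX2, a glutathione peroxidase of the gut, was at 11.6 and 10.9 against 4.29, 3.64 and 3.99 CPM.

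Among 24 Wnt targets tested, DKK4 was lower, and without Control 2 also LGR5, NOTUM and BAMBI. DKK4, a secreted Wnt inhibitor that is itself a Wnt target, was at 3.73 and 5.47 CPM in Parental and at 1.34, 0.67 and 1.01 CPM in Control (log2 fold change -2.19 ± 0.29, adjusted p = 0.0389). LGR5, a stem cell marker, was at 0.88 and 0.74 against 0.15, 0.28 and 0.27 CPM and missed the threshold with all samples (adjusted p = 0.0828). SOX4, with a log2 fold change of -0.37, and BAMBI, with -0.38, had adjusted p of 0.177 and 0.156. The median of the list was -0.10, against 0.04 over all genes.

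CDH11, NECTIN1 and AMOTL1, which encode proteins of cell contacts and had many reads, were at 51.2% (AMOTL1) to 57.2% (NECTIN1) of the Parental mean. CDH11, a cadherin of mesenchymal cells (chr16:64943753-65126112), was at 68.0 and 68.5 CPM in Parental and at 38.6, 35.0 and 34.9 CPM in Control. NECTIN1, an adhesion molecule of adherens junctions, was at 136 and 139 against 74.2, 79.2 and 82.2 CPM, a log2 fold change of -0.78 ± 0.10 (adjusted p = 0.0378). AMOTL1, an angiomotin-like protein that binds YAP, was at 56.2 and 47.3 against 28.8, 25.2 and 25.5 CPM. Each Control library was below each Parental library in these genes, by more than the libraries of a line differed. COL4A1, a basement membrane collagen, had -1.38 ± 0.18 (adjusted p = 0.0404).

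The calls of the adhesion and matrix lists stand beside shares over all genes of 0.319% lower and 0.0508% higher with all samples. Without Control 2 these shares were 3.13% and 1.6%. Of 36 adhesion genes tested 1 was lower (CDH11), and without Control 2 1 was lower and 1 higher (ITGB8). The adhesion list summed to 6296 and 6434 CPM in Parental and to 5891, 5320 and 5644 CPM in Control. Of 31 matrix genes 1 was lower (COL4A1) and, without Control 2, 5 were, with LAMB1, LAMC1, FN1 and TIMP2 added. DESeq2 called 2 matrix genes lower and 0 higher, and 1 adhesion gene lower and 1 higher. At an unadjusted p under 0.05 stood 13 of the 31 matrix genes and 4 of the 36 adhesion genes. Over all genes tested it was 4219 of 21644. AMOTL1 was the 1 gene called among 24 YAP and TAZ targets and also among 24 genes of the Hippo core and LIM family. CCN2, a YAP target, had -0.43 (adjusted p = 0.157). Of 22 epithelial and mesenchymal genes, 0 passed with either tool (5 at an unadjusted p under 0.05), and FN1 was lower without Control 2.

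**Figure D3:**
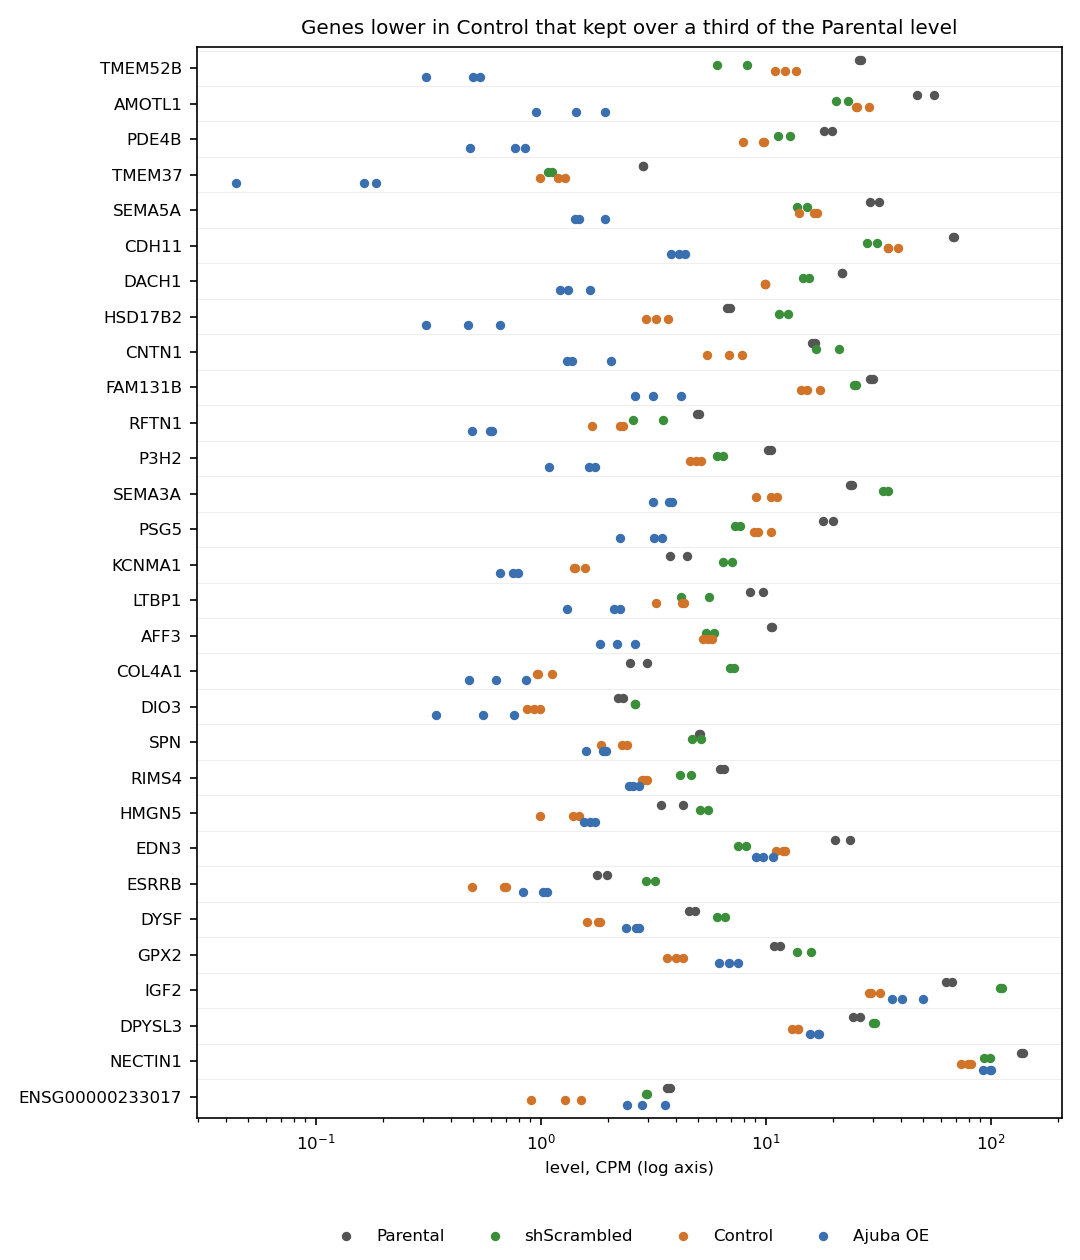
Levels in CPM on a log axis for the 30 lower genes with a Control mean above 33.3% of the Parental mean, ordered by the level in Ajuba OE relative to Parental. Each point is 1 library; in the upper rows (TMEM52B, AMOTL1, PDE4B, CDH11) the Control points lie between those of Parental and Ajuba OE.

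The genes lower in Control were then looked up in 2 lines that share no library with the comparison, Ajuba OE and shScrambled. Both carry a vector and were selected, but only Ajuba OE carries the overexpression construct, and it also holds more AJUBA and no shRNA, which cannot be told apart here. Of the 69 genes, 64 were lower in Ajuba OE than in shScrambled at an adjusted p under 0.05, where 8.23% of 21914 genes were lower. The median log2 fold change of the 69 was -3.37, against 0.02 over all genes. CSRNP3, AKR1C4, GJA1 and PHYHIPL had 0 counts in every Ajuba OE library, so they were tested only through their level in shScrambled. With at least 10 counts in every sample, 41 of the 69 were tested, and 36 were lower and 2 higher. Their median was -2.20, and 1461 of all 18861 genes tested were lower in that fit. DEFA5 and DKK4 were higher in Ajuba OE, NECTIN1, EDN3 and ENSG00000233017 passed in neither direction, and 58 to 64 of the 69 were lower when any 1 library was left out. Of the 11 genes higher in Control, CLK1 was higher in Ajuba OE and 0 were lower, where 5.88% of all genes were higher. A level below shScrambled is not always a level below Parental. In CCND2, which is among the 64, Ajuba OE was at 107.3% and shScrambled at 184.6% of the Parental mean.

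Genes of 3 kinds are described by their levels over the 4 lines, sorted after they were seen, and these kinds do not cover all 69 genes. EDN3, for example, had means of 21.9 CPM in Parental, 11.8 in Control, 9.87 in Ajuba OE and 7.85 in shScrambled. In the first kind, Control and Ajuba OE were both under 10% of the Parental mean while shScrambled stood near or above Parental. SEMA3D was at 6.80 and 7.004 CPM in shScrambled and at 0.15, 0.04 and 0 CPM in Ajuba OE. ROBO2 was at 3.34 and 3.39 against 0.10, 0.02 and 0 CPM, and COLCA1 at 45.6 and 48.6 against 1.26, 1.75 and 1.72 CPM. The COLCA1 levels of Control and Ajuba OE overlapped (log2 fold change of Control over Ajuba OE 0.21, adjusted p = 0.658). CSRNP3, AKR1C4, GJA1 and PHYHIPL had 0 counts in all 3 Ajuba OE libraries, where 3 counts would be 0.043, 0.063 and 0.075 CPM.

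In the second kind, Control lay between Parental and a much lower Ajuba OE. CDH11 was at 4.38, 4.10 and 3.80 CPM in Ajuba OE and at 31.4 and 28.3 CPM in shScrambled. AMOTL1 was at 1.43, 0.95 and 1.93 CPM in Ajuba OE, 2.78% of Parental, and SEMA5A at 1.93, 1.42 and 1.48 CPM. Control was higher than Ajuba OE by 3.15, 4.23 and 3.30 on the log2 scale (adjusted p = 4.26e-05, 0.000135 and 8.31e-05). Against shScrambled, which was below Parental too, Control differed in the 3 genes by 0.28, 0.27 and 0.12 (adjusted p = 0.2003, 0.242 and 0.654).

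In the third kind, Control was below Parental and Ajuba OE was around or above it. CCND2 was at 17.5, 19.6 and 21.8 CPM in Ajuba OE, around the Parental values, and at 34.7 and 32.9 CPM in shScrambled. DEFA5 was at 9.34, 6.19 and 8.82 CPM in Ajuba OE and DKK4 at 16.6, 8.32 and 12.6 CPM, above every Parental library. In shScrambled, DEFA5 was at 0.95 and 1.01 CPM and DKK4 at 2.85 and 3.20 CPM, below Parental too. The log2 fold changes of shScrambled over Parental were -0.68 and -0.59 (edgeR adjusted p = 0.0328 and 0.0153). Control was lower than Ajuba OE by 2.15 (CCND2, adjusted p = 0.000494), 5.04 (DEFA5, adjusted p = 0.00011) and 3.64 (DKK4, adjusted p = 0.00105) on the log2 scale. Control is the line the study compares Ajuba OE with, so these values are part of that comparison.

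Each control line can be set beside the other. Control against shScrambled gave 1272 genes called (5.8% of 21940 tested), shScrambled against Parental 6526 (30.7% of 21289) and Control against Ajuba OE 1147 (5.43% of 21140). These comparisons share libraries with the one described here, and the counts differ in replicate number and in the spread within the lines. For ROBO1, the log2 fold change was -2.23 ± 0.14 in Control against Parental, -2.70 in Control against shScrambled and 0.46 in shScrambled against Parental. For IGF2, the values were -1.08, -1.88 and 0.79, and for ZFP36 they were 1.095, 0.28 and 0.81.

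Few genes were higher in Control, and ZFP36 was among them. It encodes tristetraprolin, which binds AU-rich elements and speeds the decay of messenger RNAs, and it is induced early after stimulation. ZFP36 (chr19:39406847-39409412) was at 8.49 and 8.17 CPM in Parental and at 16.04, 19.1 and 17.1 CPM in Control, 2.09 times as high. CLK1, a kinase of splicing factors, was at 75.5 and 67.2 against 113, 133 and 127 CPM. In both genes every Control library was above both Parental ones, with log2 fold changes of 1.095 ± 0.13 (adjusted p = 0.0235) and 0.83 ± 0.12 (adjusted p = 0.0479).

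The third protein coding gene was ENSG00000015479, whose symbol is not unique in the annotation. It was at 9.72 and 9.47 CPM in Parental and at 18.7, 18.2 and 16.3 CPM in Control. Another entry, ENSG00000280987, overlaps it on the same strand, so reads of this place may be split between them. That entry held 1919 read pairs in the 5 libraries, against 3152 for ENSG00000015479. Its change had the opposite sign and missed the threshold (-0.14, adjusted p = 0.593). The other genes with a symbol were 2 long non-coding RNAs, GAS6-AS1 (log2 fold change 1.19) and SLCO4A1-AS2 (1.104), and 3 gene copies that may share reads with other loci, RN7SKP16 (1.48), NCLP1 (1.31) and RFESDP1 (0.93). GAS6-AS1 overlaps GAS6 on the other strand, which held more reads and had 0.09 (adjusted p = 0.790). It also overlaps TMEM255B on the same strand, which held 1387 read pairs against 2068 for GAS6-AS1. TMEM255B had the opposite sign and missed the threshold (-0.23, adjusted p = 0.3555). These values are uncertain to that extent.

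ZFP36 belongs to the list of AP-1 and immediate early genes, transcription factors and regulators that cells switch on within minutes of serum or stress. Of 20 tested, ZFP36 was the 1 that passed with all samples, while 12 were higher and 0 lower without Control 2. DESeq2 called 8 higher and 0 lower with all samples, and 14 genes stood at an unadjusted p under 0.05. The median log2 fold change was 0.55 with and 0.46 without Control 2, against 0.04 and 0.01 over all genes, and 16 of 20 values were positive. The median of the list lay 0.53, 0.45 and 0.48 above the Parental mean in Control 1, 2 and 3, so Control 2 did not stand apart in it. The Parental libraries lay 0.01 below and above their mean.

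EGR1, an immediate early transcription factor, was at 60.0 and 59.3 CPM in Parental and at 168, 112 and 121 CPM in Control. It just missed the threshold with all samples (1.19 ± 0.18, adjusted p = 0.0508) and passed without Control 2 (1.29 ± 0.13, adjusted p = 0.000141). JUNB, at 6.59 and 7.98 against 12.6, 12.9 and 13.2 CPM, had the same adjusted p of 0.0508, and its exons overlap HOOK2 on the other strand. FOS was at 34.9 and 34.0 against 60.6, 48.9 and 49.5 CPM. The Control values of all 3 genes lay above those of Parental. MYC, JUND, DUSP1 and FOSL2 had negative values, from -0.09 to -0.03, with adjusted p of 0.648 or more.

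Ajuba OE held EGR1 at 132, 152 and 175 CPM and FOS at 61.0, 70.8 and 74.6 CPM, and shScrambled held 75.7 and 89.3 CPM of EGR1 and 28.8 and 35.0 CPM of FOS. ZFP36 was at 15.7, 16.2 and 16.9 CPM in Ajuba OE and at 12.7 and 15.96 CPM in shScrambled. IER3, another early response gene, was at 117 and 125 CPM in Parental and at 207, 180 and 190 CPM in Control (adjusted p = 0.0601, and 0.000849 without Control 2).

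**Figure D4:**
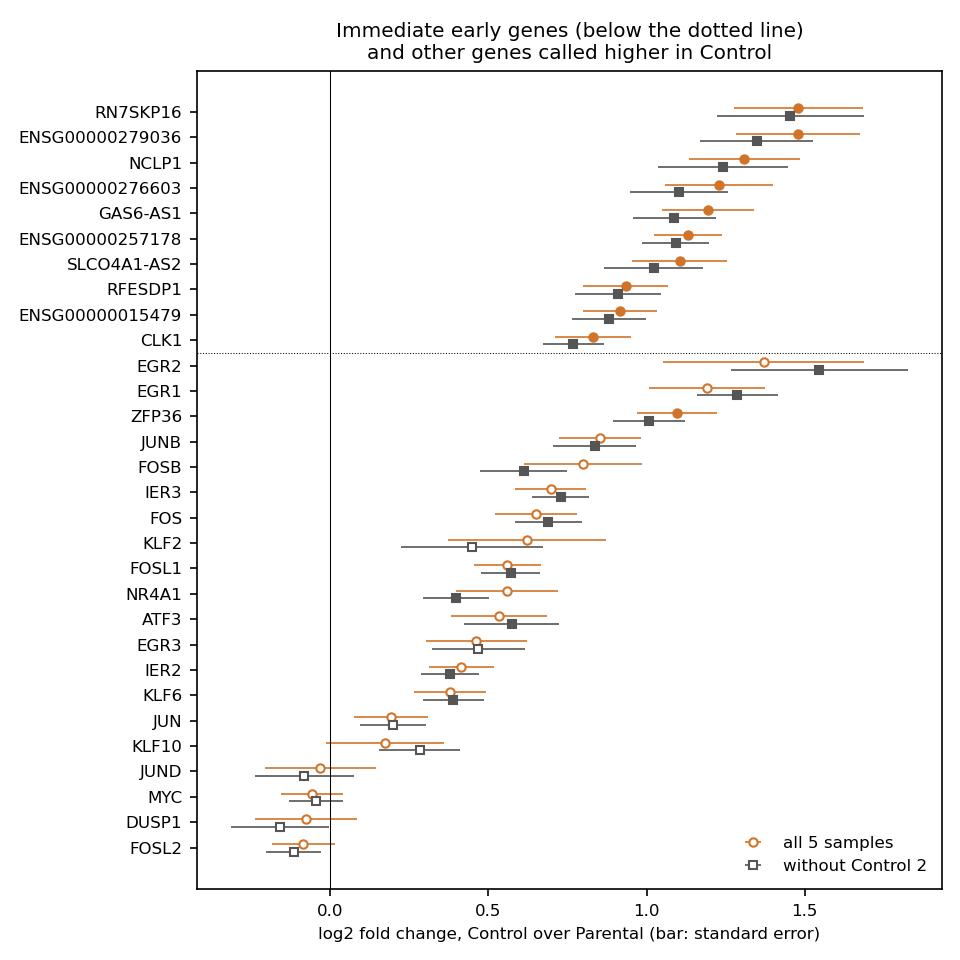
Log2 fold change of Control over Parental with its standard error for the 20 immediate early genes (below the dotted line) and the 10 other genes called higher (above it), with all 5 samples (circles) and without Control 2 (squares). Filled symbols passed an adjusted p of 0.05: of the early genes ZFP36 alone with all samples and 12 without Control 2.

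The CArG box, the element through which serum response factor drives immediate early genes, was looked for in RefSeq promoter windows of 300 bases (250 before to 50 after a start, GRCh38.p14). Its reverse complement has the same form, so 1 search covers both strands. The window table held 15 of the 20 genes, in 19 windows, and 2 of these windows, of EGR1 and EGR2, held the box, against 1.29% of all 35116 windows. The 250 bases before the start are shown for both, with the boxes in capitals. They were chosen because they held the box, and boxes outside the windows would be missed.
EGR1, chr5:138465229-138465478, plus strand: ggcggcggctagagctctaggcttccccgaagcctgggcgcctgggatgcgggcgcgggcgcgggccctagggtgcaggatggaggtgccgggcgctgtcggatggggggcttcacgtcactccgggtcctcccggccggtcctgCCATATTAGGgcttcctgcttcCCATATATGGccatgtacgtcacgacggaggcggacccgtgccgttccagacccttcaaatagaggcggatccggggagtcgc
EGR2, chr10:62816367-62816616, minus strand: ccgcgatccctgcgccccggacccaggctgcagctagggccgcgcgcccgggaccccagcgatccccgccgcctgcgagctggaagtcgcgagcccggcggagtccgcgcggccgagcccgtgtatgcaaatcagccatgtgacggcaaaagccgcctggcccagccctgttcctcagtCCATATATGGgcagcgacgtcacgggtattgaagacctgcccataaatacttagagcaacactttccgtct
The EGR1 stretch held 2 boxes, at 105 to 96 and 83 to 74 bases before the start, and the EGR2 stretch 1, at 71 to 62. EGR2 itself was at 0.48 and 0.64 CPM in Parental and at 1.90, 1.05 and 1.42 CPM in Control. A match is a description of these letters and not a binding site.

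Programmes that a virus or a drug can call up did not pass. Of 36 interferon response genes tested of 42, edgeR called 0 and DESeq2 3 (lower), with 8 at an unadjusted p under 0.05 and a median log2 fold change of -0.11. Both tools called 0 of 21 genes of retrovirus restriction and DNA sensing (median -0.12), 0 of 19 genes of MHC class I presentation (-0.15) and 0 of 24 p53 targets (0.04), with 5, 2 and 4 at an unadjusted p under 0.05. Over all genes tested, 4219 of 21644 stood at an unadjusted p under 0.05. The 3 IFITM genes, which block virus entry into cells, were lower without Control 2. IFITM1 was at 14.7 and 16.7 CPM in Parental and at 8.82, 7.25 and 8.54 CPM in Control, below every Parental library (log2 fold change -0.91 ± 0.13, adjusted p = 0.0504). IFITM2 and IFITM3 had -0.67 and -0.61 (adjusted p = 0.0907 and 0.127).

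ABC transporters pump drugs and lipids out of cells, and edgeR called 0 of 15 and DESeq2 5 (lower), with 6 at an unadjusted p under 0.05. ABCB1, the multidrug transporter, was at 23.8 and 23.8 CPM in Parental and at 13.9, 10.3 and 10.9 CPM in Control. The lines did not overlap, and the log2 fold change was -0.997 ± 0.15 (adjusted p = 0.0504). Without Control 2, 5 of 15 were lower and 0 higher: ABCB1, ABCC2, ABCG1, ABCG2 and ABCA3. In Ajuba OE, ABCB1 was at 29.6, 24.6 and 26.5 CPM.

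Control 2 lay furthest from Parental of the 3 Control libraries in the ribosomal and the mitochondrial transcripts. The median of 78 cytosolic ribosomal protein genes lay 0.25, 1.15 and 0.37 below the Parental mean in Control 1, 2 and 3 on the log2 scale, against 0.07 either way in Parental. Of these genes edgeR called 0 and DESeq2 3 with all samples, 26 stood at an unadjusted p under 0.05, and 22 were lower without Control 2. The 13 transcripts of the mitochondrial genome lay 0.0057 below and 0.77 and 0.24 above it in Control 1, 2 and 3, and 0 passed in either fit or with DESeq2 (2 at an unadjusted p under 0.05). Ajuba OE 2 stood apart in both groups too. In Ajuba OE 1, 2 and 3 the ribosomal median was 0.27, -0.74 and -0.16 and the mitochondrial one 0.05, 0.90 and 0.19 from the Parental mean. The 44 replication-dependent histone genes tested of 49 had medians 0.53 below and above the mean in the Parental libraries and 0.92, 0.09 and 0.40 above it in Control 1, 2 and 3, and 0 passed with either tool (1 at an unadjusted p under 0.05). Whether these shifts bear on the other results was not tested.

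Cholesterol synthesis (25 tested) had a median of -0.19, with 24 of 25 values negative. edgeR called 0 of them with all samples (DESeq2 1, and 7 at an unadjusted p under 0.05) and 6 lower without Control 2, among them DHCR7 and FDFT1. Of 19 BMP pathway genes 0 passed (DESeq2 4 lower, 7 at an unadjusted p under 0.05), and 5 were lower without Control 2. BMP2, a secreted ligand of this pathway, was at 0.73 and 0.64 CPM in Parental and at 0.23, 0.10 and 0.07 CPM in Control (adjusted p = 0.0803). GREM1, a secreted BMP antagonist, and BMP4 and BMP5 were the others, with BAMBI, a decoy receptor.

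Of 18 abundant long non-coding RNAs tested, 0 passed with all samples (DESeq2 3 higher, 6 at an unadjusted p under 0.05) and 4 were higher without Control 2. MALAT1, a nuclear RNA, was at 6187 and 7019 CPM in Parental and at 13110, 15470 and 11740 CPM in Control (log2 fold change 1.06 ± 0.18, adjusted p = 0.0708). Its Ajuba OE libraries lay at 5082, 12940 and 13350 CPM, a spread wider than the difference between the lines. AREG and EREG, ligands of the EGF receptor (a list with 0 of 13 called by either tool and 4 at an unadjusted p under 0.05), were higher without Control 2, by 0.72 and 0.79, and missed the threshold with all samples (adjusted p = 0.196 and 0.218).

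The lists given next held 0 calls by edgeR with all samples, and 0 to 4 by DESeq2. At an unadjusted p under 0.05 stood 7 of 27 ATF4, 5 of 17 ERK, 8 of 20 NF-kB and 7 of 24 hypoxia genes. So did 6 of 18 Notch genes, 4 of 14 stem cell markers, 5 of 15 aldehyde dehydrogenases and 12 of 36 HOX genes. The others held 2 of 18 clustered protocadherins, 4 of 17 Eph and ephrin genes and 1 of 5 cancer testis antigens. Of the markers it was 3 of 10 epithelial, 2 of 5 fibroblast, 2 of 7 leukocyte and 0 of 1 endothelial. Over all genes it was 4219 of 21644. Without Control 2, 1.6% of all 20838 genes tested were higher and 3.13% lower. Without it, 3 of 27 genes of the ATF4 and unfolded protein response (1 higher, 2 lower), 4 of 17 ERK output genes (2 and 2), 1 of 18 NF-kB targets (IL1A, higher), 2 of 24 hypoxia genes (lower), 2 of 18 Notch genes (1 and 1), 2 of 14 stem cell markers (lower), 2 of 15 aldehyde dehydrogenases (lower), 3 of 35 HOX genes (higher) and 1 of 16 clustered protocadherins (PCDHB5, lower) passed. Eph receptors and ephrins (17 tested with all samples) and cancer testis antigens (5 tested) held 0 in both fits. Of the colon epithelium markers 0 of 10 passed with all samples and CDH17 and VIL1 without Control 2. Of 5 fibroblast, 7 leukocyte and 1 endothelial marker tested, 0 passed with all samples, and PDGFRB, a fibroblast marker, was lower without Control 2, at 6.49 and 7.30 CPM in Parental and 3.91, 5.06 and 3.99 CPM in Control.

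**Figure D5:**
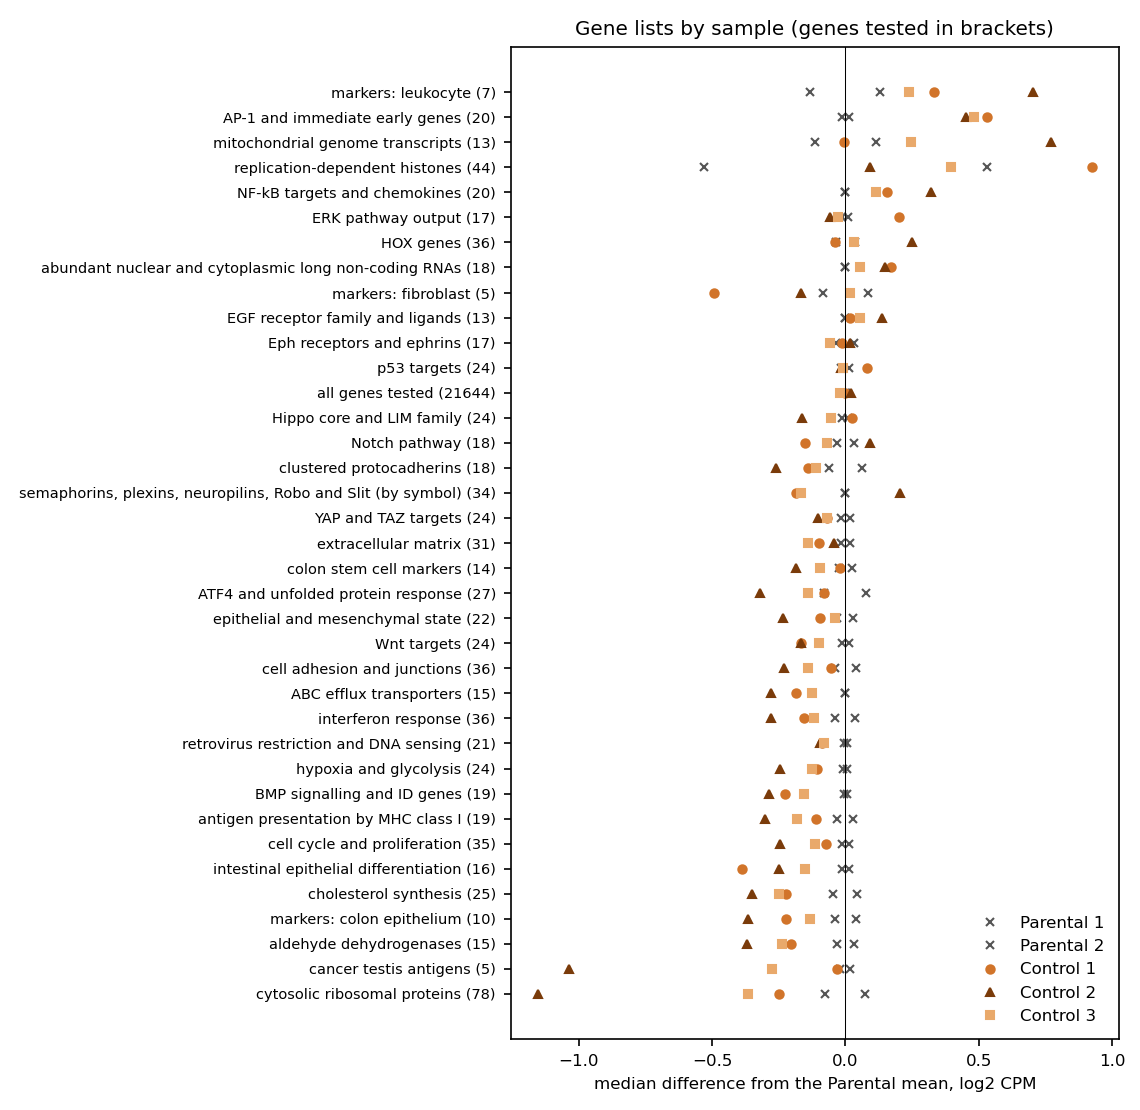
Median difference of each gene list from the Parental mean (log2 CPM, horizontal axis) in each Parental and Control library, for lists with 5 or more genes tested. Ribosomal protein genes lie furthest left and mitochondrial transcripts among the furthest right in Control 2, while the 3 Control libraries lie together for the immediate early genes.

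The genes called were spread over 20 chromosomes. Chromosome 2 held 9, and no window of 50 neighbouring tested genes held more than 4, the window of the chromosome 7 semaphorins. The median log2 fold change of 23 chromosomes with 50 or more genes tested ran from -0.03 to 0.11, and that of 413 windows from -0.15 to 0.45. The highest window (chr1:14404-1280420) lay 0.03, 0.69 and 0.28 above the Parental mean in Control 1, 2 and 3, furthest in Control 2.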

How the data were processed

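Total RNA of SW480 lines was prepared as stranded mRNA libraries. The authors aligned read pairs to hg38 (GRCh38) with HISAT2 and counted them over exons per gene with featureCounts, and deposited raw counts for 66023 genes in 16 samples. Versions, annotation release and strand option are not given in the sources used here. Without a stated strand option, overlapping genes may share reads.

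Symbols and positions came from GENCODE 44 by gene identifier (56434 of 66023 genes; 99.8% of counts). Control and Parental were compared with edgeR 4.0.16 (R 4.3.3; TMM, filterByExpr, quasi-likelihood F test on these 5 samples; Benjamini-Hochberg). A gene was called at an adjusted p under 0.05. Levels are CPM over effective library sizes of all 16 samples, and log2 CPM used a prior count of 2. The study used DESeq2, run here (1.42.0) as an alternative. Totals of 34334603 to 53584129 counts put 3 read pairs at 0.056 to 0.087 CPM, for counting error only.

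Named genes were AJUBA, LIMD1 and WTIP; the 12 largest changes each way and the 5 with most reads each way (log2 fold change of 0.5 or more), called with and without Control 2, at 1 CPM or more and not overlapping; and the 4 smallest p-values of each of 36 gene lists and of chromosome windows. The comparison, the lists and these rules were chosen with earlier results of these data known. The comparison of Ajuba OE with shScrambled, the guidance family and the promoter search were added after the data were seen. Alternatives were other scalings and filters, DESeq2, all 16 samples in 1 fit, a fold threshold, a replicate block and each replicate left out. The result of 1 gene list is not reported here.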

Additional observations from a re-analysis of the deposited data

How the results depend on the processing

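The 80 genes called between Control and Parental became 1947 with every gene of at least 1 count, 26 with at least 10 counts in every sample, 567 with DESeq2, 530 with all 16 samples in 1 fit and 14 to 985 when 1 replicate was left out, the highest without Control 2. In each fit, every one of the 80 genes that was tested had the same direction, and 7 were called in all of them (SEMA3D, ROBO1, COLCA1, CCND2, CGNL1, DPEP1 and ENSG00000224099). All these fits share libraries with the main one, so the like directions are not separate support. Library size alone, DESeq2 size factors and a log2 fold change of at least 1 left 81, 109 and 68. The replicate block gave 318, 77 of the 80 among them, but the shared numbers do not pair the samples: only 2 numbers are shared, no label gives them a batch, and same-numbered libraries deviated from their lines with r = -0.13 and -0.17. The crossed pair Parental 1 and Control 2 had r = 0.17.

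Control against shScrambled (1272) became 2661 with every gene of at least 1 count, 2066 with all 16 samples, 613 at a log2 fold change of at least 1 and 129 to 3669 with 1 replicate left out. Control against Ajuba OE (1147) became 1763 with DESeq2, 2386 with all 16 samples, 5140 with the replicate block, 549 at the fold threshold and 412 to 988. shScrambled against Parental (6526) became 1696 with all 16 samples, 1075 at the fold threshold and 3010 to 5369. Ajuba OE against shScrambled (3093) became 1514 at the fold threshold and 793 to 6988. The cause of these shifts was not tested, apart from the fold threshold, which removes genes by construction.

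Signs turned for genes near 0 when 1 replicate was left out. The log2 fold change lay between -0.012 and 0.083 for AJUBA, -0.024 and 0.14 for LIMD1, -0.14 and 0.18 for WTIP and -0.00097 and 0.42 for COL1A1, lowest without Control 2, and between -0.10 and 0.24 for ACTA2, negative without Parental 1 or Control 1. With 1 Parental library left, that library is assumed to vary like the Control libraries. At these depths, genes of under 1 CPM rest on few reads.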
